A study of Mus musculus with 288 samples.

Results

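Molecular chaperones help proteins fold, keep unfolded chains from clumping and hand them on to the next step. The genes described here are 64 of the 23481 genes in the count table. They were chosen by name as the HSP70, HSP90, small heat shock, HSP60, HSP10 and HSP110 proteins, the DNAJ co-chaperones, the CCT chaperonin subunits, the protein disulfide isomerases (PDIA), P4hb, Calr and Canx, with at least 50 UMI (unique molecular identifiers, each standing for 1 captured RNA molecule) summed over all wells. By the compartment of their protein, 16 belong to the endoplasmic reticulum (ER), 19 to the cytosol, 7 to the CCT ring, 8 to mitochondria and 14 to none of these lists. The rule matched 89 names, and 25 of them fell under the minimum, 14 of those at 0 UMI. The nearest genes outside were Dnajb5 with 42 UMI and Dnajc27 with 34. The nearest inside were Hspa2 with 61 and Hspb6 with 62.

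The cells were macrophages grown from the bone marrow of C57BL/6 mice aged 12 weeks, differentiated for 7 days with M-CSF. They were pretreated for 24 h with the CDK8 inhibitor dCA at 100 nM or the CDK8 inhibitor BRD-6989 at 1 µM, or pretreated with DMSO. The sample labels give no duration for DMSO. The cells were then left without stimulus (NoStim) or given 1 of 11 stimuli: SeV, Pam3cys, Poly(I:C), LPS, CpG, FLA, R848, MDP, MDP_LPS (named for both agents), TDB or Zymosan. RNA was read by 3′ digital gene expression at 8 times from 15 to 180 min by the sample titles, with 1 well for each of the 288 combinations; the treatment protocol gives a range of 0 to 4 h. Each pretreatment filled a plate of its own, read under its own sequencing index. An effect of an inhibitor and one of its plate cannot be told apart. Each stimulus had the same plate column and each time the same row on all 3 plates, so these cannot be told apart from position either. The labels name no separate cultures or animals, so p-values measure only the spread between these libraries, which may be technical.

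Wells held 21810 to 70797 UMI without Rn45s, the ribosomal RNA precursor. Rn45s took a median of 53.3% of UMI in DMSO wells, 49.3% in dCA wells and 44.2% in BRD-6989 wells. Levels are counts per 1000000 UMI without Rn45s (CPM). A 3′ count does not grow with transcript length, so levels of different genes can be set side by side as molecules captured. The wells of each pretreatment and stimulus were summed, giving 36 libraries of 227325 to 449471 UMI, or 130076 to 273442 UMI where only the 5 times from 60 min on ("late") were used. The macrophage markers Lyz2 and Csf1r had 14490 and 9341 UMI in all. The 8 macrophage markers together held 46188 UMI, with Mertk lowest at 75. Markers of other cell types were few: all 4 erythroid markers were at 0, and the B cell, neutrophil and fibroblast lists held 22, 29 and 18 UMI. The T cell list held 80 UMI, all of Cd3d. The dendritic cell list held 214 UMI, of which Xcr1 gave 210.

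Cells raise chaperones through separate programmes. Heat shock factor 1 (HSF1) drives cytosolic chaperones through heat shock elements in promoters when unfolded proteins build up in the cytosol. In the ER, the sensors ATF6, IRE1 (through XBP1) and PERK drive the unfolded protein response, in part through the ER stress element. The stretches below show these elements in windows around the members' gene starts. RefSeq windows (GRCm38.p6) of 250 bases before to 50 after the gene start were found for 52 members. The ER stress element was searched as CCAAT and CCACG with 9 bases between them, on both strands. It was present in 6 of 15 ER members and in 0 of 15 cytosolic members with a window, against 0.137% of 27025 genes. The capitals mark the element, with 20 bases on each side.
Hspa5, chr2:34772005-34772063, plus strand: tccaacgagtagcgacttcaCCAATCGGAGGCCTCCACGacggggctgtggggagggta
Calr, chr8:84847055-84847113, minus strand: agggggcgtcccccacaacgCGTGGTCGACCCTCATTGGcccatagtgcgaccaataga
Canx, chr11:50325780-50325838, minus strand: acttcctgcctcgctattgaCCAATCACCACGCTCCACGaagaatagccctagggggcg
Pdia6, chr12:17266471-17266529, plus strand: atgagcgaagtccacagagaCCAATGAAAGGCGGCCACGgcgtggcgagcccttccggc
Dnajc3, chr14:118937807-118937865, plus strand: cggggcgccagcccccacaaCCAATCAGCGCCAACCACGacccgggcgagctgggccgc
The sixth, Hsp90b1, held 2 matches. Each of the 6 windows held more than 1 CCAAT box, and 41.1% of all genes have at least 1.

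The heat shock element was searched as 3 alternating triplets, GAA and TTC, with 2 bases between them, starting with either. It was found in 4 members with a window, Hsph1, Dnajb6, Hspd1 and Hspe1, against 0.662% of all genes. In Hsph1 the match began 15 or 36 bases after the gene start, depending on the RefSeq start used. In Dnajb6, Hspd1 and Hspe1 it began before the start. Hspd1 (HSP60) and Hspe1 (HSP10), partners in mitochondrial folding, lie head to head and share 1 stretch, which is shown because Hspe1 was called with both inhibitors.
Hspe1, chr1:55088039-55088096, plus strand: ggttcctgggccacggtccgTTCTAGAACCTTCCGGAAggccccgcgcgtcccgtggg
Hsph1, chr5:149636268-149636320, minus strand: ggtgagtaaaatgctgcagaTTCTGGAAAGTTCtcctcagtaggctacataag
The windows of Hspa1a, Hspa1b, Dnaja1 and Dnajb1 did not hold these letters, which says nothing about HSF1 at those genes.

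A few genes carried most of the chaperone RNA. Over the 36 libraries, Hsp90ab1 (the constitutive cytosolic HSP90) averaged 2121 CPM, Calr (calreticulin, the calcium-binding lectin chaperone of the ER) 1691, Hspa8 (the constitutive HSP70) 1300, Hsp90aa1 (the inducible HSP90) 1201, Hsp90b1 (GRP94, the HSP90 of the ER) 1049 and Hspa5 (BiP, the HSP70 of the ER) 748. Hspa9 (the mitochondrial HSP70) averaged 637, Canx (calnexin) 463, P4hb (protein disulfide isomerase) 365, Cct4 316, Cct2 220 and Dnaja1 (an HSP70 co-chaperone) 205. Inducible HSP70 was low on average, at 99.5 for Hspa1b and 49.3 for Hspa1a. The summed ER members had a median of 5165 CPM in the 12 DMSO libraries (3867 to 6078), 4966 with dCA (3862 to 5412) and 5328 with BRD-6989 (4096 to 6186). The summed cytosolic members had medians of 5904 (4680 to 6902), 5347 (4581 to 5775) and 5570 (4875 to 6255). These ranges overlap widely.

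Inducible HSP70 gave the largest called rise with stimulation among the members. In the late libraries without stimulus, Hspa1b stood at 17.3 (DMSO), 73.0 (dCA) and 59.7 (BRD-6989) CPM. With R848 it stood at 355, 292 and 252, with LPS at 218, 207 and 262, with MDP_LPS at 176, 286 and 237, and with CpG at 208, 140 and 263. In these 4 stimuli every plate lay above all 3 unstimulated libraries. The counts behind them were small, 3 to 14 UMI without stimulus and 56 to 63 with R848. Each stimulus was compared with NoStim over the 3 plates by edgeR's quasi-likelihood test, with the plate as a block and Benjamini-Hochberg adjustment over 6311 genes. Hspa1b rose with R848 by a log2 fold change of 2.60 (SE 0.50, adjusted p = 0.00044), with MDP_LPS by 2.31 (SE 0.50, adjusted p = 0.00143), with LPS by 2.28 (SE 0.51, adjusted p = 0.00175) and with CpG by 2.02 (SE 0.51, adjusted p = 0.0216). The R848 and MDP_LPS calls held in all 10 alternatives. The LPS call was lost without the DMSO plate (adjusted p = 0.0528), and the CpG call was lost in 6 of 10, including without the DMSO or the BRD-6989 plate.

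The other stimuli spread over a range for Hspa1b without a clear gap. The lowest Zymosan library (84.5) lay beside the highest of MDP (88.6) and of Poly(I:C) (84.4). Pam3cys (230, 88.6 and 156 in DMSO, dCA and BRD-6989), FLA (122, 176 and 124) and Zymosan (84.5, 96.7 and 180) lay above the unstimulated libraries on every plate but did not pass the edgeR test. For Pam3cys, Hspa1b was called by DESeq2, with total read counts and without the dCA plate. SeV lay at 16.0 to 27.1, TDB at 11.7 to 58.0, MDP at 9.56 to 88.6 and Poly(I:C) at 21.9 to 84.4, which overlaps NoStim. In all, 23 of 33 stimulated libraries exceeded the highest unstimulated one. Hspa1a, on chromosome 17 beside Hspa1b (GRCm38.p6, 34969359 to 34972156 and 34956429 to 34959238), encodes a nearly identical protein, so the split of tags between the pair is uncertain. Hspa1a stood at 5.76, 62.6 and 36.8 without stimulus and at 152, 151 and 104 with R848, a difference of 1.97 (SE 0.64) that missed the threshold by edgeR (adjusted p = 0.101). It passed the edgeR test over any of the 11 stimuli (adjusted p = 0.0262), a call lost in 7 alternatives, among them leaving out the DMSO (0.218), the dCA (0.244) or the BRD-6989 plate (0.428).

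**Figure D1:**
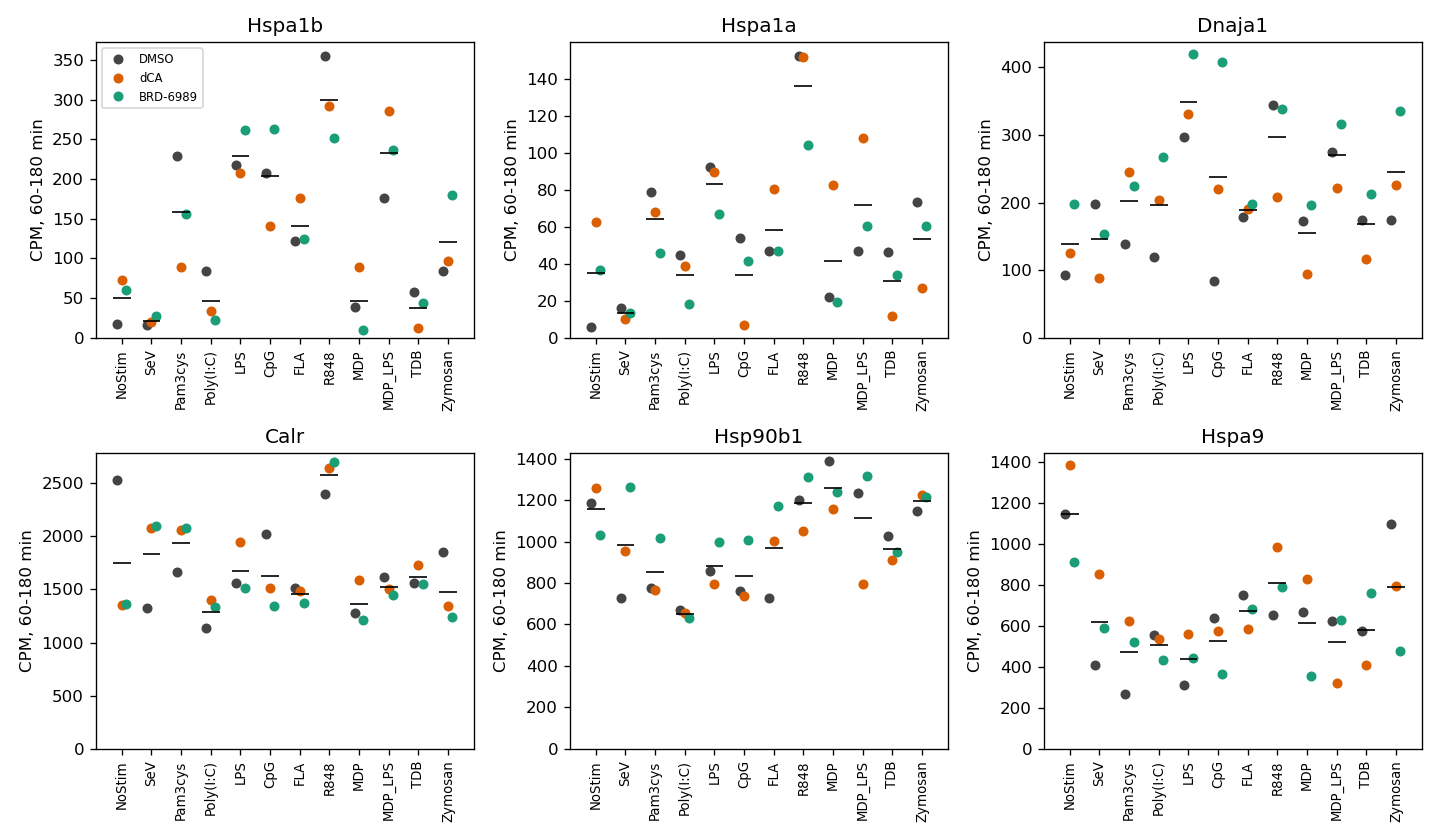
Level in CPM (y axis) of 6 chaperone genes in each stimulus (x axis), summed over 60 to 180 min, with 1 point for each plate (DMSO, dCA, BRD-6989) and a bar at their mean. Hspa1b reaches 252 to 355 with R848 against 17.3 to 73.0 without stimulus, and Hspa9 is highest in the unstimulated libraries.

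Dnaja1 was the other cytosolic member called higher in a single stimulus. It stood at 92.2, 125 and 198 CPM without stimulus and at 297, 331 and 420 with LPS (log2 fold change 1.47, SE 0.34, edgeR adjusted p = 0.00333). With R848 it stood at 344, 209 and 338 (1.19, SE 0.34, edgeR adjusted p = 0.0473). Every plate was higher with either stimulus than without. The R848 call held in 1 of 10 alternatives, and the LPS call was lost without the dCA or the BRD-6989 plate. Hsph1 (HSP110) and Dnajb1 (HSP40), which work with HSP70, were near the counting limit, where 1 UMI is worth 3.66 to 7.69 CPM. Hsph1 stood at 11.5 to 20.9 without stimulus and 4.16 to 59.4 with LPS, a difference that was not called. Dnajb1 stood at 11.5 to 36.8 and 0 to 20.8 and had too few counts to be tested against the stimuli.

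With Poly(I:C), Hsp90b1 and Hsp90ab1 fell, while the third HSP90 gene, Hsp90aa1, was not called (log2 fold change -0.28, SE 0.16). Hsp90b1 stood at 1187, 1257 and 1034 without stimulus and at 671, 654 and 629 with Poly(I:C), with no overlap (log2 fold change -0.78, SE 0.17, edgeR adjusted p = 0.00335). Hsp90ab1 stood at 2525, 2034 and 1976, and at 1577, 1313 and 1594 with Poly(I:C) (-0.48, SE 0.14, edgeR adjusted p = 0.0458). The Hsp90ab1 call was lost when any 1 plate was left out, and the Hsp90b1 call without the dCA or the BRD-6989 plate. The summed ER members stood at 3479, 3953 and 3997 with Poly(I:C), below the 6582, 5027 and 5054 of NoStim, and their median log2 change was -0.63 over 16 tested members, against 0.0030 over all genes. The DMSO library without stimulus includes the well of 150 min, with 5345 for Calr and 4427 for Hsp90ab1. The medians of the unstimulated DMSO wells were 1576 and 2438. The part of that well in these falls was not tested.

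Hspa5, the usual read-out of ER stress, was not called in any stimulus. It stood at 683 to 868 in the unstimulated late libraries and 526 to 1070 in the 33 stimulated ones. Pdia6 (a disulfide isomerase) fell with R848, from 311, 130 and 198 to 45.1, 62.7 and 95.4 (log2 fold change -1.62, SE 0.45, edgeR adjusted p = 0.0356), a call that was lost when any 1 plate was left out. Dnajb12, a membrane-bound co-chaperone of the ER, fell with LPS from 109, 73.0 and 101 to 0, 16.8 and 16.6 (0 to 4 UMI; edgeR adjusted p = 0.0229), and this call too was lost without any 1 plate.

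Calr and Hspa9 were called against NoStim, and these calls were lost without the wells of 1 time, 120 min for Calr and 180 min for Hspa9. Calr was higher with R848 by 0.64 (SE 0.17, edgeR adjusted p = 0.0221), at 2396, 2647 and 2703 CPM against 2530, 1351 and 1365 without stimulus, so the DMSO plate did not show the rise. The R848 wells of 120 min held 6476 (DMSO), 5763 (dCA) and 7612 (BRD-6989), while the other 4 late R848 wells held 691 to 1032, 968 to 3432 and 750 to 1840. Without the wells of 120 min, an alternative chosen after the data were seen, the difference was -0.50 (edgeR adjusted p = 0.242). The Calr call was also lost without the dCA plate (edgeR adjusted p = 0.533) or the BRD-6989 plate (0.607). Total read counts, no block and all 8 times ended it too. Hspa9 was lower in the mean of the 11 stimuli by 0.90 on the log2 scale (log2 fold change -0.90, SE 0.19, edgeR adjusted p = 0.00136) and in CpG, LPS, MDP_LPS, Pam3cys and Poly(I:C) singly, by -0.96 to -1.25. The unstimulated wells of 180 min held 3396 (DMSO), 3694 (dCA) and 1635 (BRD-6989), against 108 to 1329 in the other unstimulated wells. Without the wells of 180 min, also chosen after the data were seen, the mean difference was -0.01 (edgeR adjusted p = 0.997) and none of the 5 single-stimulus calls held. A time in 1 stimulus and a plate position cannot be told apart here.

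**Figure D2:**
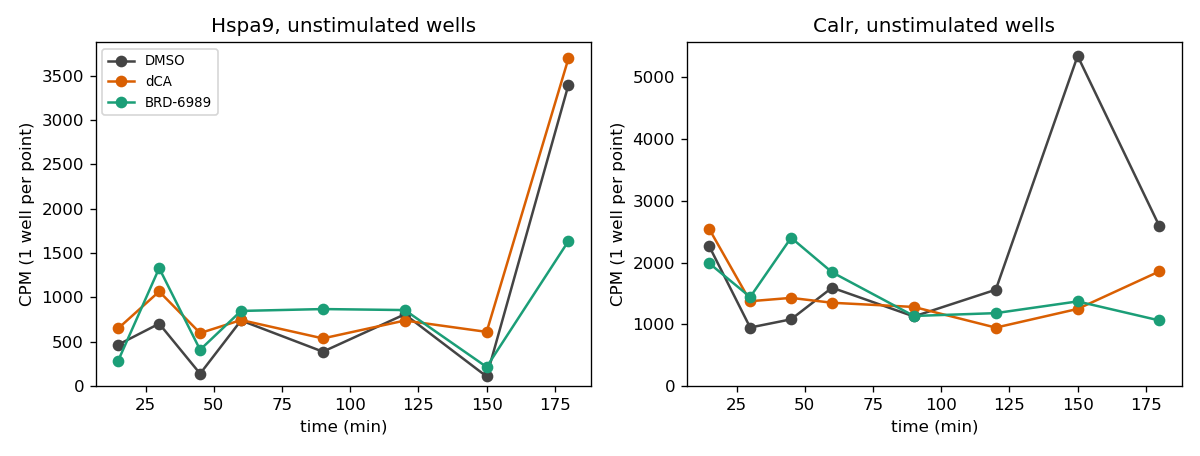
Level in CPM (y axis) of Hspa9 and Calr in single unstimulated wells by time in min (x axis), with 1 line for each pretreatment plate. Hspa9 is highest at 180 min on all 3 plates (3396, 3694 and 1635), and Calr at 150 min on the DMSO plate only (5345).

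By number, 1 of 48 tested members was called in the mean of the 11 stimuli, against 2.36% of all genes, and 7 in the test over any stimulus (Hspa1b, Hsp90ab1, Calr, Hsp90b1, Hspa9, Dnaja1 and Hspa1a), against 6.32%. For single stimuli there were 16 calls of a member in a stimulus: 4 in LPS (3.91% of all genes), 4 in R848 (2.52%), 3 in Poly(I:C) (2.54%), 2 in CpG (1.68%), 2 in MDP_LPS (3.71%) and 1 in Pam3cys (1.98%). No member was called in the main edgeR test or by DESeq2 in SeV (0.19% of all genes), FLA (1.05%), MDP (0.0792%), TDB (0.111%) or Zymosan (2.99%). There, 5, 3, 3, 3 and 2 members had an unadjusted edgeR p under 0.05. Among the alternatives, Hspa9 was called in SeV, MDP and TDB with no filter on low counts, and Calr in SeV without the DMSO plate. Of 33 tested genes of the unfolded protein response and ER folding, Herpud1 (an ER-associated degradation factor) rose with Pam3cys (log2 fold change 2.31, SE 0.60, edgeR adjusted p = 0.021). Of 23 tested genes of the HSF1 network, Bag1 (an HSP70 nucleotide exchange factor) fell with R848 (-1.36, SE 0.40, edgeR adjusted p = 0.0475).

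Over time, Hspa1b also rose most. Late wells (60 to 180 min) were compared with early wells (15 to 45 min) in 72 libraries by edgeR, over 3063 genes. Summed over the 12 conditions of a plate, Hspa1b went from 10.5, 34.9 and 85.8 CPM at 15 min (DMSO, dCA, BRD-6989) to 201, 188 and 180 at 180 min. Its log2 change was 1.37 (SE 0.26, edgeR adjusted p = 0.000115), and it was higher late in 27 of 36 conditions, a call that held in all 7 alternatives. With LPS, Hspa1b pooled over plates was 48.1 CPM at 45 min, 140 at 60 min and 258 at 90 min. With R848 it was 27.3, 115 and 238 at these times and 516 at 180 min, while the unstimulated wells ranged from 0 to 109 at all times. Dnaja2 (an HSP70 co-chaperone) rose by 0.49 (SE 0.15, edgeR adjusted p = 0.0221), higher late in 24 of 36 conditions, and Hspa5 by 0.18 (SE 0.057, edgeR adjusted p = 0.0288), higher in 25 of 36. The Dnaja2 call was lost without the DMSO or the BRD-6989 plate, and the Hspa5 call without any 1 plate. These 3 of 33 tested members compare with 12.6% of all genes. Whether the rise was larger with stimulus than without could not be shown: 0 genes (0%) passed that edgeR test, 2 members had an unadjusted p under 0.05, and DESeq2 called 0 members. For Hspa1b that difference was 0.61 (SE 1.09).

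**Figure D3:**
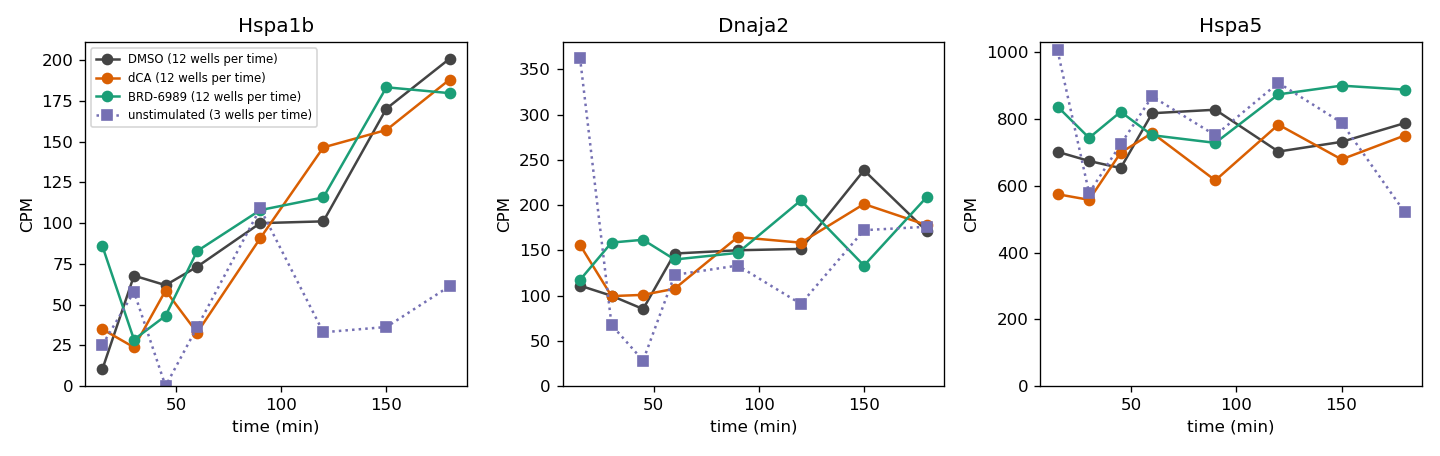
Level in CPM (y axis) against time in min (x axis) of the 3 members that rose over time, with 1 line for each plate summed over its 12 conditions and a dotted line for the 3 unstimulated wells of each time. Hspa1b goes from 10.5 to 85.8 at 15 min to 180 to 201 at 180 min on the 3 plates.

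With the inhibitors, members were called at shares not far from those of all genes. Each inhibitor was compared with DMSO over 12 pairs of libraries, with the stimulus as a block, by edgeR over 5691 genes, of which 47 were members. With dCA, 6 members were called (3 higher, 3 lower), against 18.1% of all genes (9.79% higher, 8.31% lower). With BRD-6989, 7 were called (4 higher, 3 lower), against 20.8% (9.72% higher, 11.1% lower). The members' shares were 12.8% with dCA and 14.9% with BRD-6989, and their difference from all genes was not tested. Their median log2 change was 0.0099 with dCA and 0.095 with BRD-6989, against -0.011 and -0.016 over all genes. Both comparisons use the same DMSO libraries, and the doses differ.

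In the ER, P4hb fell with either inhibitor. Its median was 430 CPM over 12 DMSO libraries (320 to 553), 323 with dCA (176 to 442) and 306 with BRD-6989 (252 to 431). The log2 change was -0.33 with dCA (SE 0.11, edgeR adjusted p = 0.0255, lower in 9 of 12 conditions) and -0.40 with BRD-6989 (SE 0.11, edgeR adjusted p = 0.00518, lower in 10 of 12). The ranges overlap up to the medians. Dnajb9 (ERdj4, a BiP co-chaperone and target of XBP1) rose with BRD-6989, from a median of 10.8 (3.25 to 56.4) to 39.6 (11.1 to 75.0), by 1.29 (SE 0.38, edgeR adjusted p = 0.00873, higher in 10 of 12). With dCA its median was 25.0 and its change 0.60 (SE 0.39, edgeR adjusted p = 0.329). Pdia3 (ERp57, the isomerase that works with Calr and Canx) rose with BRD-6989 by 0.44 (SE 0.16, edgeR adjusted p = 0.0387) and Pdia4 fell by 0.52 on the log2 scale (log2 fold change -0.52, SE 0.18, edgeR adjusted p = 0.0338). Pdia6 rose with dCA by 0.51 (SE 0.17, edgeR adjusted p = 0.032). With the other inhibitor these genes changed in the same direction but were not called. Pdia3 changed by 0.14 and Pdia4 by -0.40 with dCA (edgeR adjusted p = 0.64 and 0.135), and Pdia6 by 0.27 with BRD-6989 (0.287). Directly between the inhibitors, Dnajb9, Pdia3, Pdia4 and Pdia6 were not called (edgeR adjusted p = 0.358, 0.363, 0.828 and 0.543). The 4 most abundant ER members did not pass the test with either inhibitor: Calr changed by 0.08 with dCA and -0.07 with BRD-6989, Hsp90b1 by -0.04 and 0.13, Hspa5 by -0.06 and 0.17, and Canx by -0.03 and 0.16. The BiP co-chaperones Dnajb11 (ERdj3) and Dnajc3 (p58IPK) were not called either, with changes of -0.07 and 0.21 for Dnajb11 and -0.19 and 0.36 for Dnajc3. Hspa5 with BRD-6989 had an edgeR adjusted p of 0.0798 and was called without SeV, Pam3cys, LPS, FLA or Zymosan. Between dCA and BRD-6989, Hspa5 differed by -0.23 (SE 0.07, edgeR adjusted p = 0.0545). That difference was called by DESeq2, with Rn45s kept, and without SeV, CpG, MDP_LPS or TDB.

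In the cytosol, Hsp90aa1 fell with BRD-6989, from a median of 1330 (1096 to 1474) to 1059 (872 to 1375), by 0.27 on the log2 scale (log2 fold change -0.27, SE 0.053, edgeR adjusted p = 7.33e-05, lower in 11 of 12 conditions). With dCA the Hsp90aa1 median was 1158 and the change -0.12 (SE 0.054, edgeR adjusted p = 0.111), which was called with total read counts. Its direct difference between the inhibitors was not called (0.15, edgeR adjusted p = 0.118). Hsp90ab1 changed by -0.14 with dCA (edgeR adjusted p = 0.0824, called without SeV) and by -0.09 with BRD-6989 (0.297). Dnajc7 fell with dCA, from a median of 64.6 to 33.1 (-0.73, SE 0.27, edgeR adjusted p = 0.0495). With BRD-6989 it changed by -0.12. Dnaja1 changed by 0.01 with dCA and by 0.36 with BRD-6989 (SE 0.14, edgeR adjusted p = 0.0567). The BRD-6989 change was called by DESeq2, with Rn45s kept and in late wells alone. It was also called without SeV, LPS, FLA, R848, MDP, MDP_LPS or TDB. Hspa8 changed by 0.0041 and -0.06 with dCA and BRD-6989, and Hspa1b by 0.0099 and 0.11, with 95% intervals for Hspa1b of -0.42 to 0.44 and -0.32 to 0.53. In mitochondria, Hspe1 rose with both inhibitors, from a median of 97.6 to 125 with dCA (0.48, SE 0.16, edgeR adjusted p = 0.0307) and 139 with BRD-6989 (0.52, SE 0.16, edgeR adjusted p = 0.0145), higher in 10 of 12 conditions each time. Its partner Hspd1 changed by 0.27 and 0.34 and was not called. Hspa9 rose with dCA by 0.37 (SE 0.10, edgeR adjusted p = 0.00577) and Dnajc19 (a DNAJ protein of the inner membrane) with BRD-6989 by 0.88 (SE 0.28, edgeR adjusted p = 0.0185). With the other inhibitor, Hspa9 changed by 0.14 (edgeR adjusted p = 0.378) and Dnajc19 by 0.57 (0.187). Directly between the inhibitors neither was called (edgeR adjusted p = 0.227 and 0.643). Among the 14 members on none of the compartment lists, Dnajc21 fell with dCA (log2 fold change -0.75, SE 0.26, edgeR adjusted p = 0.0329). With BRD-6989 it changed by -0.47 (edgeR adjusted p = 0.193), and the direct difference between the inhibitors was not called (-0.28, edgeR adjusted p = 0.656). None of the 7 CCT subunits, which fold actin and tubulin, was called against DMSO by edgeR or DESeq2, and 2 with dCA and 1 with BRD-6989 had an unadjusted edgeR p under 0.05. With dCA these were Cct4 (0.28, SE 0.12, edgeR adjusted p = 0.0896) and Cct7 (0.32, SE 0.16, edgeR adjusted p = 0.17), and with BRD-6989 Cct6a (0.39, SE 0.17, edgeR adjusted p = 0.106). Cct4 was called with dCA without NoStim or without MDP_LPS. Cct2 changed by 0.04 and -0.05 and Cct8 by 0.19 and -0.20 with dCA and BRD-6989. Between the inhibitors 1 member was called, against 3.55% of all genes: Cct6a was lower with dCA than with BRD-6989 (-0.66, SE 0.18, edgeR adjusted p = 0.0223), with medians of 79.6 and 136 and 108 in DMSO.

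The Rn45s share differed between the plates. With each library's share as a covariate, 1 of the 6 calls with dCA was kept (Hspa9, at 0.76 with edgeR adjusted p = 5.33e-08) and 0 of the 7 with BRD-6989, where 5 members had an unadjusted edgeR p under 0.05. Hsp90ab1 with dCA and Hspa9 with BRD-6989 were called instead. Some changes kept their size while the p rose: Hsp90aa1 with BRD-6989 was at -0.32 (edgeR adjusted p = 0.141), Hspe1 at 0.47 with dCA (0.161) and 0.50 with BRD-6989 (0.617), Pdia6 with dCA at 0.54 (0.129) and Dnajc21 with dCA at -0.75 (0.153). Others shrank, such as P4hb with dCA (-0.13, edgeR adjusted p = 0.666) and Pdia3 with BRD-6989 (0.10, edgeR adjusted p = 0.947), and P4hb with BRD-6989 changed sign (0.15, edgeR adjusted p = 0.855). In late wells alone, edgeR called 0 members with dCA (5 had an unadjusted p under 0.05) and 3 with BRD-6989. Hspa9 with dCA was at 0.19 in late wells (edgeR adjusted p = 0.442) and at 0.37 with no block (0.0646). Single wells of Hspa9 ranged from 41.7 to 3694 CPM, with 10 of 288 above 3 times the median. The part of Rn45s in these results was not tested. Leaving out 1 of the 12 conditions at a time never ended the calls of Hspa9 with dCA or of Dnajb9, Hsp90aa1 and P4hb with BRD-6989. It ended those of P4hb with dCA (without FLA, TDB or Zymosan), of Hspe1 with dCA (without NoStim, Poly(I:C), LPS, MDP_LPS or TDB) and with BRD-6989 (without Poly(I:C)), of Pdia6 (without SeV, Pam3cys, Poly(I:C), FLA or TDB), of Dnajc19 (without CpG or MDP_LPS) and of Cct6a (without CpG or FLA). Dnajc21 lost its call without NoStim, Pam3cys, Poly(I:C), LPS, MDP, MDP_LPS, TDB or Zymosan, and Dnajc7 without NoStim, SeV, Poly(I:C), LPS, CpG, MDP_LPS, TDB or Zymosan. Pdia3 lost it without NoStim, Poly(I:C), CpG, FLA, R848 or Zymosan, and Pdia4 without NoStim, SeV, Pam3cys, LPS, CpG, FLA, R848, MDP or Zymosan.

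**Figure D4:**
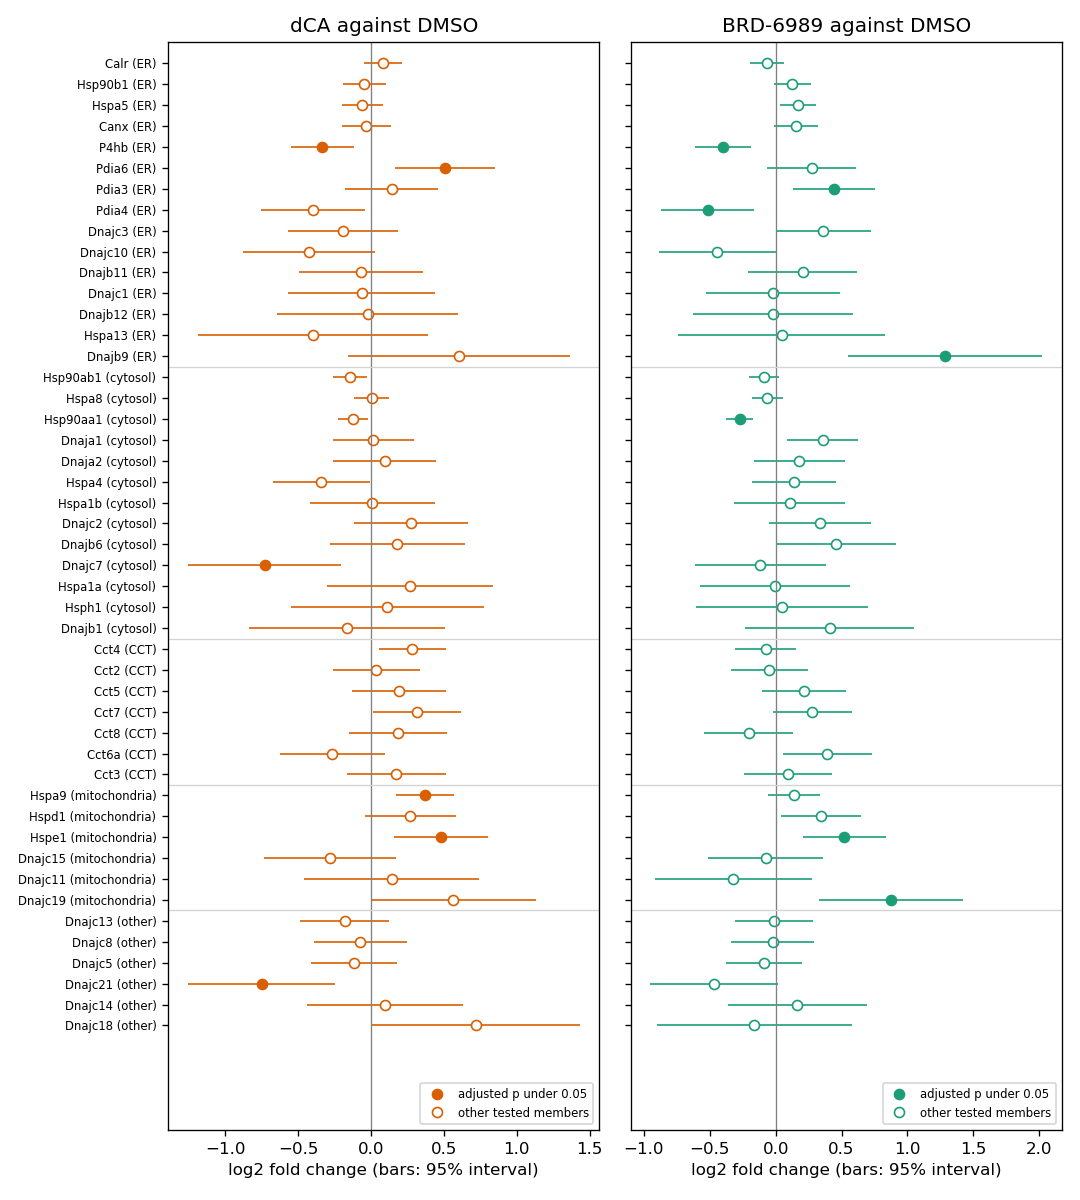
Log2 fold change (x axis, with 95% intervals as bars) of the 47 tested members (y axis, by compartment and then by level) with dCA and with BRD-6989 against DMSO over 12 pairs of libraries. Filled points passed an adjusted p of 0.05: 6 members with dCA and 7 with BRD-6989, up and down in each.

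The co-chaperone Ahsa1 (AHA1, which activates the ATPase of HSP90) is no member but had a smaller adjusted p than any member with either inhibitor. Its median went from 190 (152 to 264) in DMSO to 594 (438 to 822) with dCA and 437 (342 to 596) with BRD-6989, with no overlap with DMSO. The log2 change was 1.68 (SE 0.10, edgeR adjusted p = 2.24e-19) and 1.27 (SE 0.10, edgeR adjusted p = 8.74e-15), higher in 12 of 12 conditions with each. Of the 22 tested genes of the HSF1 network and co-chaperones, 3 rose and 1 fell with dCA, and 1 rose and 2 fell with BRD-6989. With dCA, Tcp1 (the remaining CCT subunit, whose symbol the rule does not match) rose by 0.45 (SE 0.14), Fkbp4 rose by 0.70 (SE 0.23) and Stip1 (HOP, which joins HSP70 to HSP90) had a log2 fold change of -0.57 (SE 0.19), lower in 12 of 12 conditions. With BRD-6989, Cdc37 (the kinase adaptor of HSP90) changed by -0.39 (SE 0.12) and Bag6 by -0.46 (SE 0.16). Of 29 tested genes of the unfolded protein response and ER folding, Erp29 fell with dCA (-0.32, SE 0.11), and Rpn1 (0.58, SE 0.20) and Tmx3 (0.59, SE 0.22) rose with BRD-6989.

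Whether the inhibitors altered the response to stimulation could not be decided, because the unstimulated state of each pretreatment rested on a single library. For the mean response of 11 stimuli, 0 genes (0%) were called by edgeR for dCA and 0 (0%) for BRD-6989. Of 48 members, 7 and 4 had an unadjusted p under 0.05, and DESeq2 called 0 members for either. For Hspa1b the differences were -2.24 (SE 1.13) and -1.86 (SE 1.14), resting on the low DMSO value without stimulus (3 UMI). For Calr they were 0.99 with dCA and 0.86 with BRD-6989, and for Cct2 1.20 and 2.08. The DMSO library of Calr without stimulus held the high well of 150 min (5345 CPM).

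The same wells also gave counts of 58 barcoded transcription factor reporters, among them ATF6_2 and XBP1_20, named for the ER stress factors. XBP1_20 took a median of 1.27% of reporter counts in DMSO, 1.59% with dCA and 1.51% with BRD-6989. By edgeR over the 58 reporters it was higher by 0.12 (SE 0.042, adjusted p = 0.0117) and 0.11 (SE 0.042, adjusted p = 0.0262), in 11 of 12 conditions each, where 36.2% of reporters were called with each inhibitor. ATF6_2 was not called (-0.04 and -0.0033), although its share was higher in 7 and 8 of 12 conditions, so its direction depends on the scaling. DESeq2 called neither.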

How the data were processed

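Macrophage wells were profiled by 3′ digital gene expression and reporter sequencing. The deposited UMI counts, total read counts and reporter counts are raw whole-number counts per feature; the submitters' processing notes name BWA, edgeR and mm10, with no versions given in the sources used here. Rn45s was taken out before levels and tests, and wells of a condition were summed. The main test was edgeR's (4.0.16) quasi-likelihood fit with TMM and filterByExpr (minimum count 10), with adjusted p under 0.05 as a call. Single wells entered no comparison between groups; unstimulated wells were only checked for values far from the rest of their group (Dixon's criterion). Alternatives were DESeq2 (1.42.0), no filter, Rn45s kept, read counts, an Rn45s covariate, other times, no block, and leaving out each stimulus or plate. The fits were tested on simulated data. The members and lists were chosen with earlier results of these data known. Genes named are the 12 most abundant members, called members (up to 8 each way per inhibitor, up to 4 otherwise), up to 3 called genes each way from the pathway lists per inhibitor, and a fixed set; Herpud1, Bag1, Cct7 and the single wells were picked after their values were seen. Planned protein ends were not analysed here.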

Additional observations from a re-analysis of the deposited data

Results flagged for a closer look

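Among the 8 unstimulated wells of each pretreatment, 1 well stood far from the others in 5 cases, of 30 groups tested (10 members with at least 10 UMI per well on average); chance flags about 1 in 20 groups. Hspa9 was far higher at 180 min in DMSO (3396 CPM, 130 UMI) and in dCA (3694, 167 UMI). The unstimulated DMSO well of 150 min was highest for Calr (5345) and Hsp90ab1 (4427) and lowest for Hspa8 (486). In these wells Hspa9 had 6.45 and 5.43 reads per UMI, against 5.09 and 5.40 in the other wells of its group. The wells of each group differ in time, so time and well cannot be told apart. Cct6a differed between dCA and BRD-6989 by a log2 change of -0.66, tested directly by edgeR. The causes were not tested.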

How the results depend on the processing

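The count of members called with dCA (6) became 2 with no filter on low counts, 3 with total read counts, 2 with the Rn45s share as a covariate, 0 in wells of 60 min and later, and 2 with no replicate block; leaving out 1 stimulus at a time gave 1 to 6. With BRD-6989 (7) it became 3 with read counts, 1 with the covariate and 3 in late wells, and 5 to 9 leaving out 1 stimulus. Between the inhibitors (1) it became 4 with DESeq2, 2 with Rn45s kept, 0 with read counts, 0 with the covariate, 0 in late wells, and 0 to 3 leaving out 1 stimulus. For the mean of the stimuli (1) it became 0 with read counts and 0 without the wells of 180 min, and 1 to 2 leaving out 1 plate. For any stimulus (7) it became 2 with no replicate block and 4 without the wells of 180 min, and 4 to 5 leaving out 1 plate. The 16 calls in single stimuli became 4 with read counts, 6 with no replicate block, 10 with all 8 times, 7 without the wells of 180 min, and 6 to 11 leaving out 1 plate. Late against early (3) gave 1 to 2 leaving out 1 plate. The 2 reporter calls became 0 with DESeq2. P4hb with BRD-6989 turned to 0.15 with the covariate, and Calr with R848 to -0.50 without the wells of 120 min. The alternatives without 120 or 180 min were chosen after the data were seen. The causes were not tested. Low counts kept 17 of 64 members out of the inhibitor tests.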
